A study of Homo sapiens with 22 samples.

Results

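The genes described here are 4 receptor tyrosine kinases of neural crest cells (ALK, RET, NTRK2 and NTRK3), 3 enzymes of catecholamine synthesis (TH, DDC and DBH) and a pair of granule proteins (CHGA and CHGB). They are 9 of 20176 protein-coding genes, chosen by name. Binding of N-MYC and WDR5 at each of them was read from the peak lists of 16 ChIP-seq libraries, in which a protein is crosslinked to DNA, pulled down with an antibody, and the places where sequenced DNA piles up are listed as peaks. A peak was counted as a promoter peak when its summit lay within 1 kb of any annotated transcription start site (TSS) of the gene, and otherwise as a gene-body peak when its summit lay inside the gene.

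Both cell lines, CHP-134 and IMR-32, are N-MYC amplified neuroblastoma lines. CHP-134 chromatin was collected after 4 h in dimethyl sulfoxide (DMSO), given as 0.005% in the methods and 0.0005% in a label, or after 4 h with a compound that the labels name in several ways and that is therefore not identified here. IMR-32 cells were untreated. There were 3 libraries per antibody for DMSO, 3 per antibody for the compound and 2 per antibody for IMR-32, numbered 1 and 2 for N-MYC and 1 and 3 for WDR5, and each library pooled 3 ChIPs. Each group is a single cell line, and the lists hold no expression values, so the tissue identity of the cells could not be checked from marker genes. The CHP-134 DNA was sequenced from a single end and the IMR-32 DNA from both ends, on another instrument and with longer reads. Where the lines are compared, cell line, DMSO, instrument, read length and read type therefore cannot be told apart.

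The N-MYC lists held 9125 to 15286 peaks in DMSO, 2964 to 12313 with the compound and 5242 to 8286 in IMR-32. The WDR5 lists held 1671 to 4891 peaks in DMSO, 15 to 5973 with the compound and 1258 to 1693 in IMR-32. Replicate 2 of the compound had the shortest list for both antibodies, with 2964 N-MYC and 15 WDR5 peaks, and results that depend on it are also given without it. Read depth is unknown, and an unlisted peak means only that no call passed the threshold of the peak caller.

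N-MYC, the product of MYCN, binds DNA as a dimer with MAX and prefers the hexamer CACGTG, called an E-box. WDR5 is a scaffold protein of histone methyltransferase complexes that also contacts MYC proteins. ALK, RET and the neurotrophin receptors carry growth and survival signals in sympathetic precursors, and ALK is mutated or amplified in some neuroblastomas. In the catecholamine pathway TH turns tyrosine into L-DOPA, DDC turns L-DOPA into dopamine and DBH turns dopamine into noradrenaline, which is stored in dense core granules together with the chromogranins CHGA and CHGB.

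A few N-MYC sites in or near these genes are shown as the plus strand of GRCh37 (hg19) around the median summit. They are both DDC sites found in both lines, the site upstream of TH, and the pair of ALK sites with an E-box that were listed in more than 1 library. CACGTG is in capitals where the stretch holds it, and the single capital in the last sequence marks the start site of DDC-AS1, an RNA gene antisense to DDC.
DDC intron 12, chr7:50535813-50535913: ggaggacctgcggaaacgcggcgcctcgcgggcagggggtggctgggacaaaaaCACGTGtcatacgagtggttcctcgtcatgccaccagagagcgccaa
ALK intron 2, chr2:29929419-29929519: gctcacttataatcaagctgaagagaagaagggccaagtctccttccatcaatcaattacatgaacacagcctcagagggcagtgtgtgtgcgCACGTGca
ALK intron 9, chr2:29518953-29519053: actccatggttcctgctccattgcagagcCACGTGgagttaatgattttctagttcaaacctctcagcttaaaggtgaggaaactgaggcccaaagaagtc
Upstream of TH, chr11:2212213-2212313: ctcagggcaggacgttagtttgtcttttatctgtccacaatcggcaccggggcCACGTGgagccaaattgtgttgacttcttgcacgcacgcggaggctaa
DDC intron 4, chr7:50599447-50599547: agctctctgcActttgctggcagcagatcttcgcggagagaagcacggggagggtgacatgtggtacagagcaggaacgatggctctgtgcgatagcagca
The E-box began 4 bp from the median summit in DDC intron 12, 3 bp from it upstream of TH, 43 bp from it in ALK intron 2 and -21 bp from it in ALK intron 9.

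Few of these genes had a recurrent N-MYC promoter peak. In CHP-134 DMSO, 1 of 9, CHGA, had a promoter peak in at least 2 libraries (11.1%), against 38.6% of all protein-coding genes. With the compound CHGA was again the single gene called, against 30.7% of all genes, and in IMR-32 there were 0 of 9, against 15.8%. Counting a peak in any library raised these to 6 genes in DMSO, 4 with the compound and 1 in IMR-32. The share of all genes under that looser rule is not given here, so these counts cannot be called high or low. No WDR5 promoter peak recurred at any of the 9 genes, and the background was 8.52% in DMSO, 1.33% with the compound and 4.85% in IMR-32. A single WDR5 promoter peak was listed for ALK in compound replicate 1.

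Recurrent binding lay inside 2 long genes instead. ALK and DDC had an N-MYC gene-body peak in at least 2 libraries in DMSO, with the compound and in IMR-32, where the background was 8.86%, 6.92% and 3.27% of all genes. ALK spans 728.8 kb and DDC 107 kb. NTRK2 (427.4 kb) and NTRK3 (397 kb) are longer than DDC and had 0 gene-body peaks. Among 3666 protein-coding genes of at least 100 kb the N-MYC shares were 23.46% in DMSO, 19.31% with the compound and 8.783% in IMR-32. For WDR5, ALK was the single gene called, in IMR-32 (background 0.674%, and 1.58% of the genes of at least 100 kb), and none was called in DMSO (0.981%) or with the compound (0.154%). The 9 genes together held 88 listed peaks: 57 in ALK, 16 in DDC, 5 at CHGA, 3 at CHGB, 2 each at NTRK2, NTRK3 and DBH, 1 at RET and 0 at TH.

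**Figure D1:**
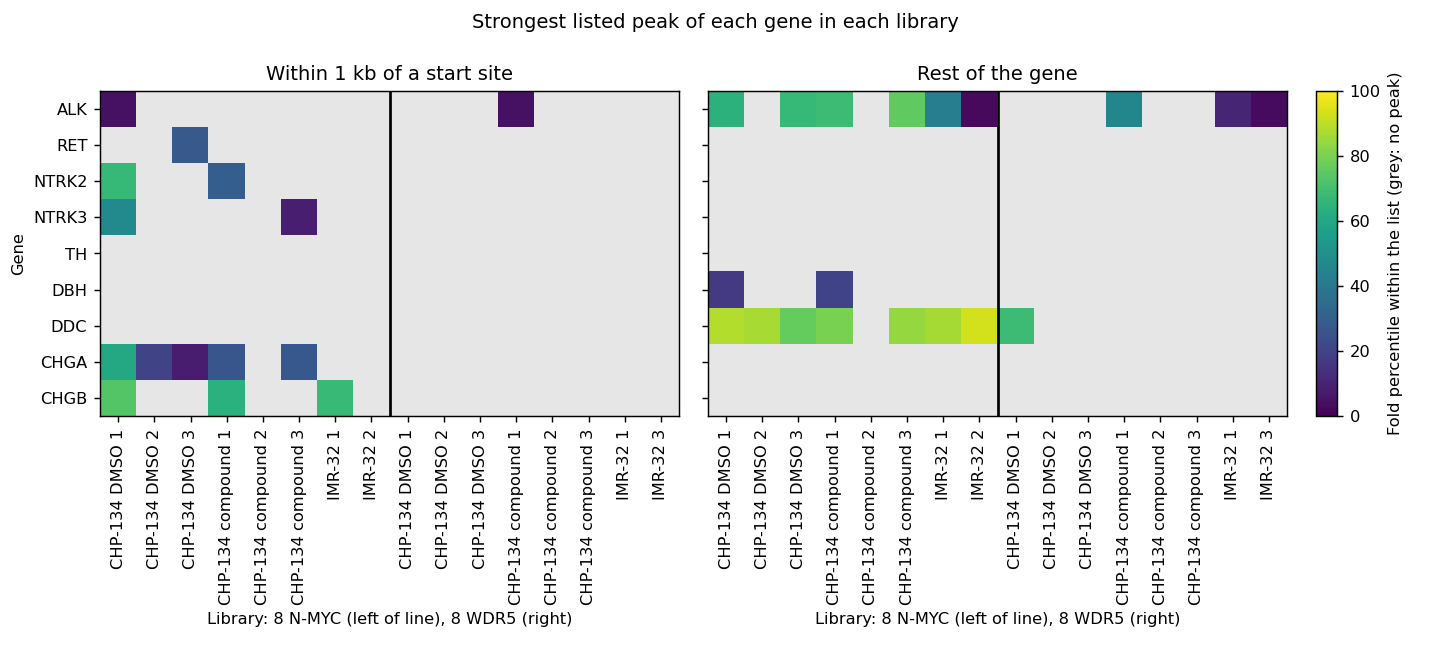
Fold percentile of the strongest listed peak of each gene (rows) in each of the 16 libraries (columns), for peaks within 1 kb of a start site (left) and in the rest of the gene (right), with grey where no peak was listed. DDC is filled in 7 of the 8 N-MYC columns on the right and TH in none on either side.

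Peak strength was compared as a percentile, the rank of the fold enrichment among all peaks of the same list (100 is the strongest), because fold depends on each library's background. No member had a promoter peak in every library compared, so none could enter the comparison of promoter percentiles. It covered 2158 genes for N-MYC with the compound and 2757 for N-MYC between the lines, and 17 and 523 for WDR5. None of these genes had an unadjusted p below 0.05, since 0.1 is the smallest p that these exact permutation tests can give.

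ALK is the receptor of the ALKAL cytokines. It lies on the minus strand at chr2:29415640-30144452. Gene-body N-MYC peaks in ALK numbered 5, 0 and 1 in the DMSO libraries, 5, 0 and 4 with the compound, and 16 and 12 in IMR-32. Both IMR-32 libraries were above every CHP-134 library, although their lists were shorter than 5 of the 6 CHP-134 lists. Per 1000 listed peaks this was 0.327, 0 and 0.0814 in DMSO and 1.93 and 2.29 in IMR-32. The means were 0.136 ± 0.170 (SD, n = 3) and 2.11 ± 0.253 (SD, n = 2), a difference of 1.97 (p = 0.1 in a two-sided exact permutation test, where 3 against 2 libraries cannot go lower). With equal numbers of the strongest peaks by fold in each list, the difference was 1.18 (exact permutation test, p = 0.2). Every list was then cut to 5242 peaks, the length of the IMR-32 replicate 2 list, which kept all 12 of its ALK peaks. Most ALK peaks of IMR-32 replicate 1 were cut, their median fold percentile being 0.978, so the 1.18 came mainly from replicate 2. Per 1000 peaks of the full lists, every IMR-32 library was above every DMSO library for 13.4% of the 3145 genes with any gene-body peak in these 5 libraries.

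The N-MYC peaks of ALK formed 24 sites, of which 15 were listed in IMR-32 alone, 6 in CHP-134 alone and 3 in both lines. The IMR-32 peaks were packed into part of the gene. In replicate 2 all 12 lay between 249.3 and 413.1 kb from the canonical start site, in introns 3 and 4, and in replicate 1 the 16 lay between 113.2 and 413.1 kb. At 10 sites both IMR-32 libraries had a peak, and 2 of those also had a peak in CHP-134. The CHP-134 gene-body peaks ran from 116.1 to 658.7 kb. The site in intron 2 was the single ALK site listed in at least 2 DMSO libraries, with percentiles of 64.4 and 66.8 in DMSO replicates 1 and 3 and 65.7 and 75.5 in compound replicates 1 and 3, and it was absent from both IMR-32 lists. The site in intron 9 was listed at 7.95 in DMSO replicate 1 and at 4.46 and 48.2 in compound replicates 1 and 3. The ALK promoter had an N-MYC peak at 4.60 in DMSO replicate 1 alone.

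**Figure D2:**
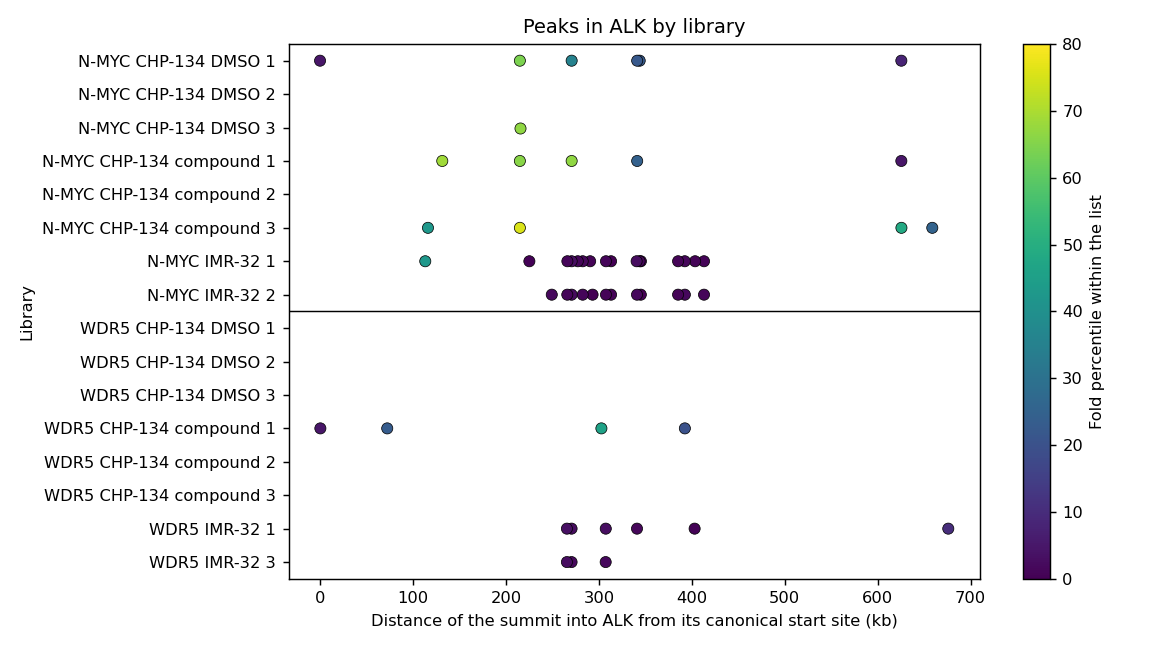
Each point is a listed peak in or at ALK, placed by the distance of its summit from the canonical start site in kb (horizontal) and by library (vertical), and coloured by fold percentile. The 12 N-MYC peaks of IMR-32 replicate 2 lie between 249.3 and 413.1 kb and are dark, while the intron 2 site at 215.0 kb appears in 4 CHP-134 libraries.

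WDR5 peaks within ALK numbered 0, 0 and 0 in DMSO, 4, 0 and 0 with the compound (1 of the 4 being the promoter peak), and 6 and 3 in IMR-32. They formed 10 sites, of which 3 were listed in both IMR-32 libraries. Of the 6 sites listed in at least 1 IMR-32 library, 4 overlapped an N-MYC site of an IMR-32 library.

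The IMR-32 peaks in ALK had low folds and strong q-values. Their folds ran from 1.36 to 5.08 in N-MYC replicate 1 and from 1.45 to 3.29 in replicate 2, where the medians of the whole lists were 5.42 and 5.995. The median fold percentile was 0.978 and 1.18, while the median percentile of −log10 q was 77.0 and 81.2. The WDR5 peaks of ALK in IMR-32 had median fold percentiles of 2.84 and 1.83 and median q percentiles of 49.4 and 59.7. In the 4 CHP-134 N-MYC libraries with ALK gene-body peaks, the median fold percentile was 22.5, 66.8, 65.7 and 45.5 and the median q percentile was 21.5, 57.0, 41.4 and 34.3.

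Peaks of this kind, under the 25th percentile of fold and over the 50th of −log10 q, made up 1.73% and 1.91% of the IMR-32 N-MYC lists. These limits were chosen after the values were seen. Of 143 such peaks in replicate 1, 120 were on chromosome 2 and 14 in ALK, and of 100 in replicate 2, 93 were on chromosome 2 and 10 in ALK. In WDR5 it was 22 of 23 and 18 of 18 on chromosome 2, with 3 in ALK in each library. In the CHP-134 lists 0% to 18.9% of such peaks were on chromosome 2 and 0 were in ALK. Of peaks of any kind, 9.78% and 9.67% of the IMR-32 N-MYC lists were on chromosome 2. On chromosome 2 of IMR-32 the low-fold, strong-q peaks lay in a few segments. The fullest were 14.8 to 16.1 Mb around MYCN (51 and 41 N-MYC peaks), 29.7 to 29.9 Mb in ALK (14 and 10) and 66.8 to 67.7 Mb around MEIS1 (45 and 33). CHP-134 also had such peaks together in the 14.8 to 16.1 Mb stretch. For N-MYC there were 14 in DMSO replicate 3, and 10 and 16 in compound replicates 1 and 3. For WDR5 there were 9 and 4 in DMSO replicates 1 and 3, and 39 in compound replicate 1. DNA copy number of these segments was not measured here, and its part in the number of ALK peaks was not tested.

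**Figure D3:**
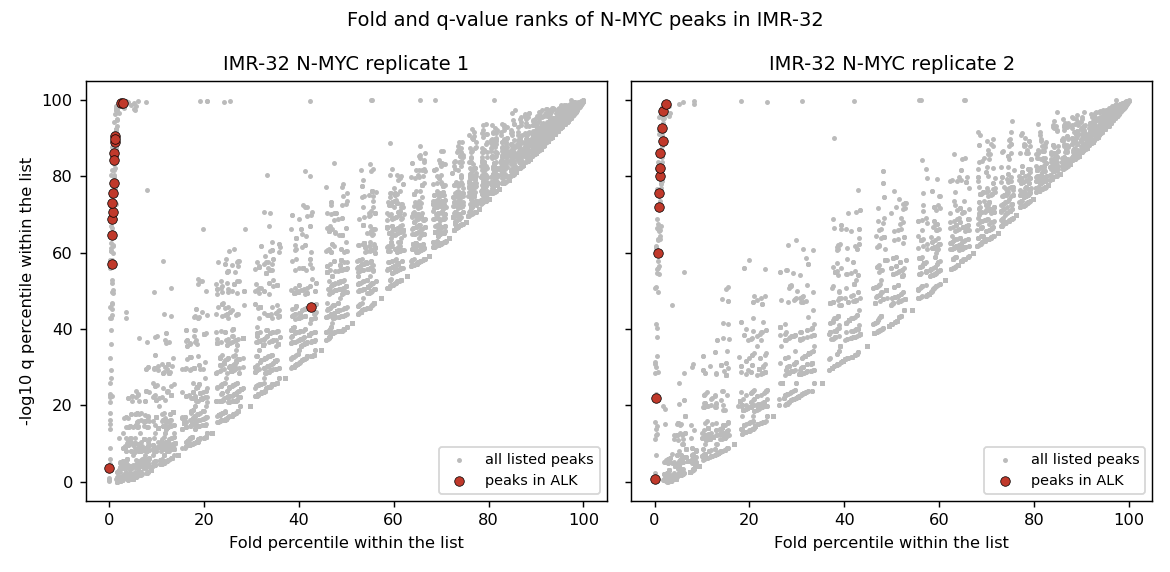
Percentile of fold (horizontal) against percentile of −log10 q (vertical) for each peak of the IMR-32 N-MYC lists, replicate 1 on the left and replicate 2 on the right, with peaks in ALK in red. Most ALK peaks stand in a column at the left edge, with median fold percentiles of 0.978 and 1.18, apart from the diagonal band of other peaks.

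RET, the receptor of the GDNF family, had 1 listed peak, at the 27.8 percentile in DMSO replicate 3. It lay in intron 4, 915 bp from the start of a transcript that retains an intron. NTRK2, the BDNF receptor, had a promoter peak at 66.95 in DMSO replicate 1 and 29.7 in compound replicate 1. NTRK3, the neurotrophin-3 receptor, whose start overlaps the antisense gene NTRK3-AS1, had a peak at 47.6 in DMSO replicate 1 and 8.46 in compound replicate 3. None of these 3 receptors had a peak in IMR-32 or with WDR5, and no peak of theirs recurred within a group.

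DDC held the highest percentiles of the set. It had 2 N-MYC peaks in each DMSO library and 2 and 3 in IMR-32. It lies on the minus strand at chr7:50526134-50633102. The site in intron 12, 97.2 kb from the canonical start site and with summits at -8464 to -8493 bp from the start of a shorter transcript, stood at 86.2, 87.1 and 64.4 in DMSO, at 79.9 and 75.96 in compound replicates 1 and 3, and at 86.4 and 93.0 in IMR-32. It was missing from compound replicate 2 alone, the shortest N-MYC list, and the groups overlapped. IMR-32 averaged 89.7 ± 4.67 (SD, n = 2) and DMSO 79.2 ± 12.9 (SD, n = 3), a difference of 10.5 (exact permutation test, two-sided, p = 0.5), which was 3.08 without DMSO replicate 3 and 34.5 with equal numbers of the strongest peaks (exact permutation p = 0.667 and 0.2). With the unlisted peak set to 0 the compound differed from DMSO by -27.3 (exact permutation test, p = 0.5), and without compound replicate 2 by -1.30 (exact permutation test, p = 1).

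The site in DDC intron 4 covered the start of DDC-AS1, so it could not be assigned to either gene alone. Its percentiles were 88.3, 46.1 and 76.5 in DMSO, 77.3 and 84.3 in compound replicates 1 and 3, and 65.5 and 30.6 in IMR-32. Again compound replicate 2 had no peak, and the groups overlapped. IMR-32 was lower than DMSO by 22.3, with means of 48.0 ± 24.7 (SD, n = 2) and 70.3 ± 21.8 (SD, n = 3), which is within the spread of the libraries (exact permutation test, p = 0.4). This difference ran from -39.8 without IMR-32 replicate 1 to -4.81 without IMR-32 replicate 2, and was -1.02 with equal numbers of the strongest peaks. With the unlisted peak set to 0 the compound differed from DMSO by -16.5 (exact permutation test, p = 0.7). Without compound replicate 2 the compound was above DMSO by 10.5 (exact permutation test, p = 0.8). The only WDR5 peak in DDC was here, at 68.5 in DMSO replicate 1. The remaining DDC site, in intron 6, was listed at 16.7 in IMR-32 replicate 2 alone.

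TH, the rate-limiting enzyme of the pathway, had no listed peak within 1 kb of a start site or in the gene in any of the 16 libraries. The nearest N-MYC site lay 19.2 kb upstream, at chr11:2211763-2212590, in no annotated gene and 17970 bp from the nearest start site, that of MIR4686. It was listed in all 8 N-MYC libraries and in 0 WDR5 libraries, and it lies outside the rule that chose peaks. It was looked for after values had been seen, as a site within 50 kb of a member in at least 7 of the 8 N-MYC lists. Its percentiles were 91.4, 90.7 and 48.6 in DMSO, 82.4, 59.95 and 79.1 with the compound, and 77.9 and 89.6 in IMR-32. The compound differed from DMSO by -3.06 over all 6 libraries (exact permutation test, p = 0.8) and IMR-32 from DMSO by 6.86 (exact permutation test, p = 1), both smaller than the DMSO SD of 24.5. The groups overlapped.

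For scale, among 3073 N-MYC sites listed in every DMSO and IMR-32 library, the groups did not overlap at 32.1%, 8.79% higher and 23.3% lower in IMR-32. Among 5921 sites listed in every DMSO library and in compound replicates 1 and 3, they did not overlap at 12%. The groups did overlap at both DDC sites and at the site upstream of TH. DBH had a weak N-MYC peak in its last exon, at 16.9 in DMSO replicate 1 and 20.02 in compound replicate 1, and no other.

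CHGA, an acidic protein of the granule matrix, had a promoter peak in 5 of 16 libraries. It stood at 60.3, 20.5 and 8.10 in DMSO and at 26.9 and 27.4 in compound replicates 1 and 3, and was not listed in compound replicate 2 or in IMR-32. The compound values fell inside the DMSO range. With an unlisted peak set to 0, the compound differed from DMSO by -11.5 (exact permutation test, p = 0.6) and IMR-32 by -29.6 (exact permutation test, p = 0.2). Without compound replicate 2 the first difference was -2.44 (exact permutation test, p = 1). The genes whose promoter percentiles over the 16 lists were most like those of CHGA were SLC27A4, LRRC4 and PRKCI, with mean absolute differences of 1.63, 2.32 and 2.54 percentile points. An unlisted peak counted as 0 here, and CHGA was listed in 5 of the 16, so lists without a peak weigh heavily in these averages. The 3 genes were picked as the smallest differences among protein-coding genes, so small values were bound to be found. A further N-MYC site with an E-box lay 20.4 kb from the nearest CHGA start site, inside ITPK1, and was listed in all 8 N-MYC libraries (31.9 to 88.2) and in 0 WDR5 libraries. CHGB, its relative, had a promoter peak in replicate 1 of each group alone, at 73.3 in DMSO, 63.8 with the compound and 67.45 in IMR-32.

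**Figure D4:**
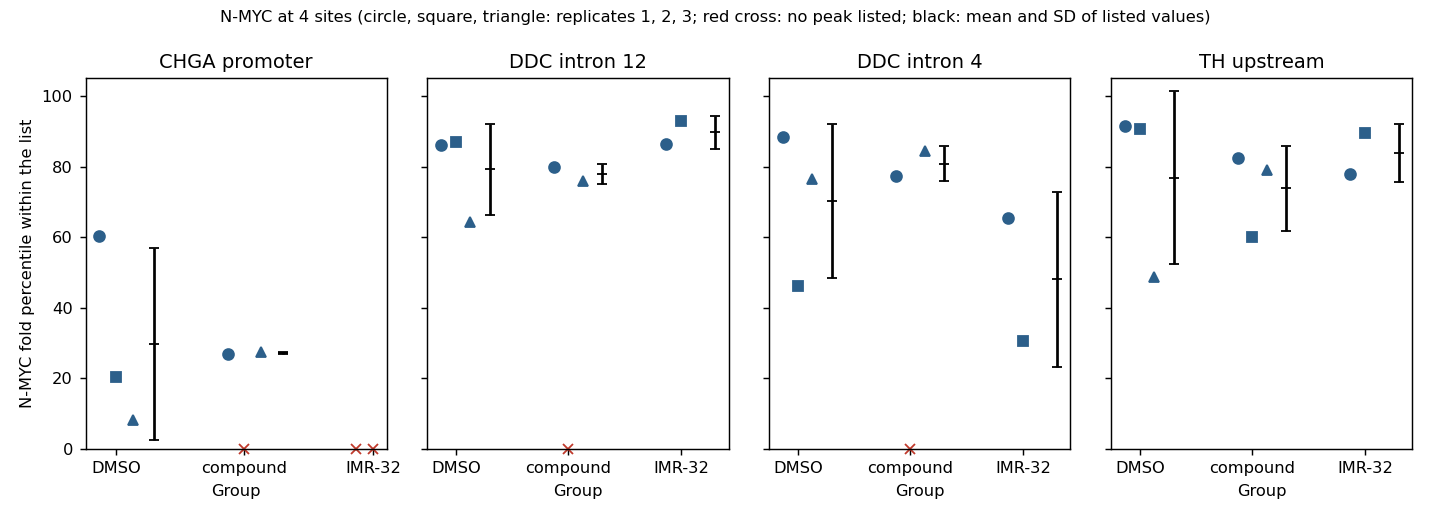
N-MYC fold percentile (vertical) at 4 sites in the DMSO, compound and IMR-32 libraries (horizontal), with symbols for replicates 1, 2 and 3, a red cross at 0 where no peak was listed, and the mean and SD of the listed values in black. The site upstream of TH has a value in all 8 libraries, while the CHGA promoter has none in IMR-32.

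CACGTG, searched within 100 bp of the median summit (it reads the same on both strands), was found at 4 of 33 N-MYC sites, 3 of 24 in ALK and 1 of 3 in DDC, and at 0 of 11 WDR5 sites. In the whole N-MYC lists 24.2% to 45.4% of peaks had it. The 11 WDR5 sites came from 4 lists, in which 14.9% (DMSO replicate 1), 8.84% (compound replicate 1), 12.8% and 11.8% (IMR-32) of peaks had it. The list shares count single peaks at their own summits, while the sites join peaks over lists, so the measures are unlike. Of the 33 N-MYC sites, 15 were ALK sites listed in IMR-32 alone. Of promoter windows from RefSeq (GRCh38.p14), 13 entries matched 7 of the 9 genes and 1, an ALK promoter, held CACGTG, against 7.26% of all 35116 entries.

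Of 47 other genes of these pathways, 11 (23.4%) had a recurrent N-MYC promoter peak in DMSO, 10 (21.3%) with the compound and 3 (6.38%) in IMR-32, each below the share of all genes given above. The dense core granule list gave 6 of 12 in DMSO (50%, against 38.6% of all genes), 4 with the compound (33.3%, against 30.7%) and 0 in IMR-32 (against 15.8%). Neurotrophin, GDNF and ALK family receptors and ligands gave 2, 3 and 2 of 20 (10%, 15% and 10%). Tetrahydrobiopterin supply gave 2, 2 and 1 of 6 (33.3%, 33.3% and 16.7%), and the catecholamine list 1, 1 and 0 of 9 (11.1%, 11.1% and 0%). These lists are short, so none is called above or below all genes. Among those with the highest mean percentile in DMSO were CPE, a carboxypeptidase of peptide hormone processing (67.7 ± 13.9, SD, n = 3), PNMT, which makes adrenaline (48.8 ± 5.29), PAM, which amidates peptides (47.3 ± 22.9), and MDK, a secreted growth factor (39.4 ± 25.7). Of these 4, MDK was also called in IMR-32, at 43.2 and 35.2.

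WDR5 promoter peaks recurred at 1 of the 47 genes (2.13%) in DMSO, against 8.52% of all genes. With the compound it was 0, against 1.33%, and in IMR-32 it was 2 (4.255%), against 4.85%. With the compound and in IMR-32 these shares were close to those of all genes, and the counts are too small to call any of them low. The recurrent WDR5 promoter peaks were at MDK and BDNF. MDK had them at 63.3, 70.9 and 53.7 in DMSO and at 83.2 and 84.1 in IMR-32, and in none of the compound libraries, whose lists held 5973, 15 and 401 WDR5 peaks. BDNF, the ligand of NTRK2, had them in both IMR-32 libraries, at 25.7 and 14.9.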

How the data were processed

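The authors aligned trimmed reads to hg19 with Bowtie2 and called peaks in each library with MACS2 at a q-value of 0.05. Program versions and the control library are not given in the sources used here. For each peak the deposited lists give a fold over local background (a linear ratio), a −log10 q-value and the distance from the peak's start to its summit, all used as the authors made them. The 6 IgG samples of the 22 were not analysed here.

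Peaks were placed by summit on GENCODE 44 (GRCh37), with every transcript's TSS used, and all peak ends fell inside the GRCh37 chromosomes. Fold was turned into a percentile within each list. Overlapping peaks of an antibody (at least 1 bp) were joined into sites. Groups of libraries were compared with exact two-sided permutation tests (Python 3.11.15, pandas 2.3.3, numpy 2.4.6, scipy 1.17.1). Peak placement, the exact tests and the joining of peaks were tested on simulated data. The methods describe independent repeats, and p-values measure the spread between these libraries. Same-numbered DMSO and compound N-MYC libraries deviated together over 2158 genes (r = 0.60, 0.53 and 0.59), so the numbers were taken to pair them. Other pairs gave -0.25 to -0.34, which is no independent contrast, because deviations within a group sum to 0. The smallest p of the paired test is 0.25. Paired p-values are given only in the last paragraph, and all others for compound against DMSO are unpaired.

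Named genes are the 9 members, pathway genes with recurrent WDR5 promoter peaks, the 5 pathway genes with the highest mean N-MYC percentile among those with a DMSO peak in all 3 libraries, and the 3 genes most like any member with promoter peaks in at least 4 lists. Of these, 1 pathway gene is included in list counts but its own values are not reported here. Members and lists were chosen with earlier results of these data known. The planned promoter percentile tests held no member, so tests of single sites, of ALK peaks per 1000 listed, of CHGA with unlisted peaks set to 0, the length class, the limits on fold and q, and the search within 50 kb were added after the data were seen. Alternatives were the window, the TSS set, peak placement, stricter q-values and equal numbers of strongest peaks. Others were ranks by −log10 q, the replicate block and leaving out each library. For the member counts, equal numbers meant the 2964 N-MYC or 15 WDR5 peaks of highest fold, the lengths of the compound replicate 2 lists. The 15 could keep no WDR5 peak of ALK in IMR-32. Those ALK peaks had fold percentiles of at most 10.16, so that count of 0 was certain and is no test.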

Additional observations from a re-analysis of the deposited data

How the results depend on the processing

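Of 285 alternatives over 25 results, 250 gave the same side or a count within 1.5 times. Many of these could not differ, so the 250 does not measure how stable the results are. A count of 0 stays 0 with stricter q-values, fewer peaks or a narrower window. The replicate block of 3 DMSO with 3 compound libraries keeps each mean difference. With the strongest 2964 (N-MYC) or 15 (WDR5) peaks of each list, members with an N-MYC promoter peak fell to 0 in DMSO and with the compound. Those with an N-MYC gene-body peak fell to 1 in each group, and those with a WDR5 one in IMR-32 to 0. A −log10 q of at least 5 left 0 with an N-MYC promoter peak in DMSO. Requiring 1 library gave 6, 4 and 1 members with an N-MYC promoter peak in DMSO, compound and IMR-32, 1 with a WDR5 promoter peak with the compound, and 1 with a WDR5 gene-body peak in DMSO and 1 with the compound. Requiring every library gave 0 with an N-MYC promoter peak with the compound, and 1 and 0 with an N-MYC gene-body peak in DMSO and with the compound. Leaving out a library gave 0 to 1 for the compound's promoter count (0 without replicate 1 or 3), 1 to 2 for the DMSO gene-body count (1 without replicate 1 or 3) and 0 to 2 for the compound's (0 without replicate 1 or 3). In IMR-32 it leaves 1 list, so no count could be made. Promoter percentiles could be compared for 0 to 1 members for N-MYC with the compound when a library was left out (1, CHGA, without compound replicate 2), and with an unlisted peak set to 0 for 6 members for N-MYC in each comparison and 1 for WDR5 with the compound, with smallest p-values of 0.6, 0.2 and 1 (exact permutation tests). The causes were not tested, except that fewer peaks or libraries enter by construction.

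A few differences changed sign, each with an exact permutation p of at least 0.6 as reported. CHGA, compound minus DMSO, ran from -22.3 to 3.83 when a library was left out (3.83 without DMSO replicate 1). DDC intron 4, with unlisted peaks set to 0, was -16.5 for compound minus DMSO, 2.03 with equal numbers of peaks, and -31.7 to 10.5 when a library was left out (10.5 without compound replicate 2). The site upstream of TH ran from -17.2 to 4.21 for compound minus DMSO, above 0 without DMSO replicate 1 or 2 or compound replicate 2, and from -7.3 to 14.1 for IMR-32 minus DMSO (-7.30 without DMSO replicate 3), where ranks by −log10 q gave -3.51. The replicate block of IMR-32 with DMSO joins different cell lines that share only a number, and amounts to leaving out DMSO replicate 3: it gave -7.30 for that last difference and 1.95 per 1000 listed peaks for ALK. The block of IMR-32 with DMSO changed the sign of no other difference. Between DMSO and compound, 3 libraries against 3, the block cannot change a mean difference, only its p. The p of the paired exact test was 0.5 for CHGA (-11.5) and 0.75 upstream of TH (-3.06). With unlisted peaks set to 0 it was 0.75 for DDC intron 12 and 0.5 for DDC intron 4. The 2 to 3 libraries per group and unknown read depth limit every comparison.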
